A study of Homo sapiens with 6 samples.

Results

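The MYC, MAX and MXD network comprises transcription factors that share MAX as their dimerization partner. The 10 genes examined here were MYC, MYCN, MYCL, MAX, MXD1, MXD3, MXD4, MXI1, MNT and MGA. They were taken by gene symbol from a table of 28008 genes, and all 10 were among the 17026 genes with enough reads to be tested. The measurements are RNA-seq read counts from NCI-H660 (H660) cells, an established neuroendocrine prostate cancer line. All 6 libraries came from cells that carried a tetracycline-inducible MUC1 shRNA in a puromycin-selected vector, so the hairpin vector was present in both groups. The 3 DOX-negative libraries came from cells given the DMSO vehicle, and the 3 DOX-positive libraries from cells given doxycycline (DOX) at 500 ng/ml for 7 days. DOX switches on the shRNA against MUC1, which encodes the MUC1-C subunit. A single hairpin was used and these samples hold no DOX-treated line with a control hairpin, so effects of MUC1 silencing, of the hairpin and of DOX itself cannot be told apart. Cultures were labelled only as grown in triplicate, so p-values measure the spread between these libraries, which may be technical.

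MYC, MYCN and MYCL are paralogs that bind DNA as dimers with MAX and activate genes of growth and metabolism. MXD1, MXI1, MXD3, MXD4 and MNT also dimerize with MAX, occupy the same E-box sequence CACGTG, and recruit SIN3 and histone deacetylases to repress transcription. MGA is a larger MAX partner that works within a Polycomb complex named PRC1.6. In neuroendocrine tumors, MYCN and MYCL are the paralogs best known as drivers. The comparison of DOX-positive with DOX-negative cells asked whether the MYC antagonists or the other paralogs moved in a way that would offset a change in MYC.

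The E-box that these proteins bind was looked for in the promoters of the network's own genes. RefSeq promoter windows (GRCh38.p14), each from 250 bases before to 50 bases after a gene start, were matched for 9 of the 10 members, all but MYC, and gave 14 windows. CACGTG, which reads the same on both strands, was present in 2 of the 14 windows (14.3%), and in 2548 of all 35116 windows (7.26%). The windows that held it were those of the repressors MXD4 and MNT. They are printed here because they are the network promoters with the letters of the network's own binding site, and the 120 bases shown are the part of each window farthest from the gene start. Each is given 5′ to 3′ on the minus strand with the E-box in capitals, at chr4:2262240-2262359 for MXD4 and chr17:2401191-2401310 for MNT.
MXD4: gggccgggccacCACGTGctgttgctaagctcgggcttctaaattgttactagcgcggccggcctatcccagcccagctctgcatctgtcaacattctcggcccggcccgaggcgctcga
MNT: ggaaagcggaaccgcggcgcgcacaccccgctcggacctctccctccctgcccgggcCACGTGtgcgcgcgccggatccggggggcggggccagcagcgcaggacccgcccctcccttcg
The E-box began 238 bases before the MXD4 start and 193 bases before the MNT start. A match of letters is a description of the window and not a binding site, since binding was not measured.

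Total counts were between 47620696 and 74061121 per library. MUC1, the targeted gene, was measured at 88.2, 90.2 and 79.6 normalized CPM (read counts brought to one library size by TMM factors) in DOX-negative and at 36.7, 37.2 and 29.9 in DOX-positive libraries. Its log2 fold change was -1.32 (SE 0.0962, adjusted p = 0.000173). The 12 neuroendocrine markers all had reads, with a summed level of 2160 to 2450 CPM in DOX-negative and 1780 to 2160 CPM in DOX-positive libraries, and 4 of them fell, namely GRP, NCAM1, INSM1 and NKX2-1. Of 7 androgen receptor pathway markers, KLK3 was at 0 in every library and the summed level was 4.05 to 4.79 CPM against 3.76 to 4.69 CPM. Of 10 stromal fibroblast markers, COL3A1 and THY1 were at 0 and 6 had a mean under 10 counts, COL1A1 and LUM rose, COL1A2 had a log2 fold change of -0.71 (adjusted p = 0.203) with no overlap between the groups, and the summed level was 25.5 to 31.1 CPM against 24.1 to 28.5 CPM. The part of these marker changes in the results for the network was not tested. In all, 829 genes changed at an adjusted p under 0.05 (edgeR quasi-likelihood test, Benjamini-Hochberg), which is 4.87% of those tested, with 496 higher (2.91%) and 333 lower (1.96%) in DOX-positive cells.

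Of the 10 members, MYC alone changed, and it rose, while 4.87% of all tested genes changed in either direction. No member fell at this threshold, and the log2 fold change was positive for 5 members and negative for 5. The median over the members was 0.018, against 0.00034 over all tested genes. The 3 libraries of one group did not overlap those of the other for 5 members (MYC, MAX, MXD1 and MNT higher, MYCL lower), a pattern seen in 28.1% of all tested genes. The same 5 members had an unadjusted p under 0.05, as did 21.1% of all tested genes. For a single gene, an exact two-sided permutation test over 3 against 3 libraries cannot give a p below 0.10, so the calls rest on the edgeR model. In these bulk samples, fewer cells of a type and less RNA per cell cannot be told apart.

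**Figure D1:**
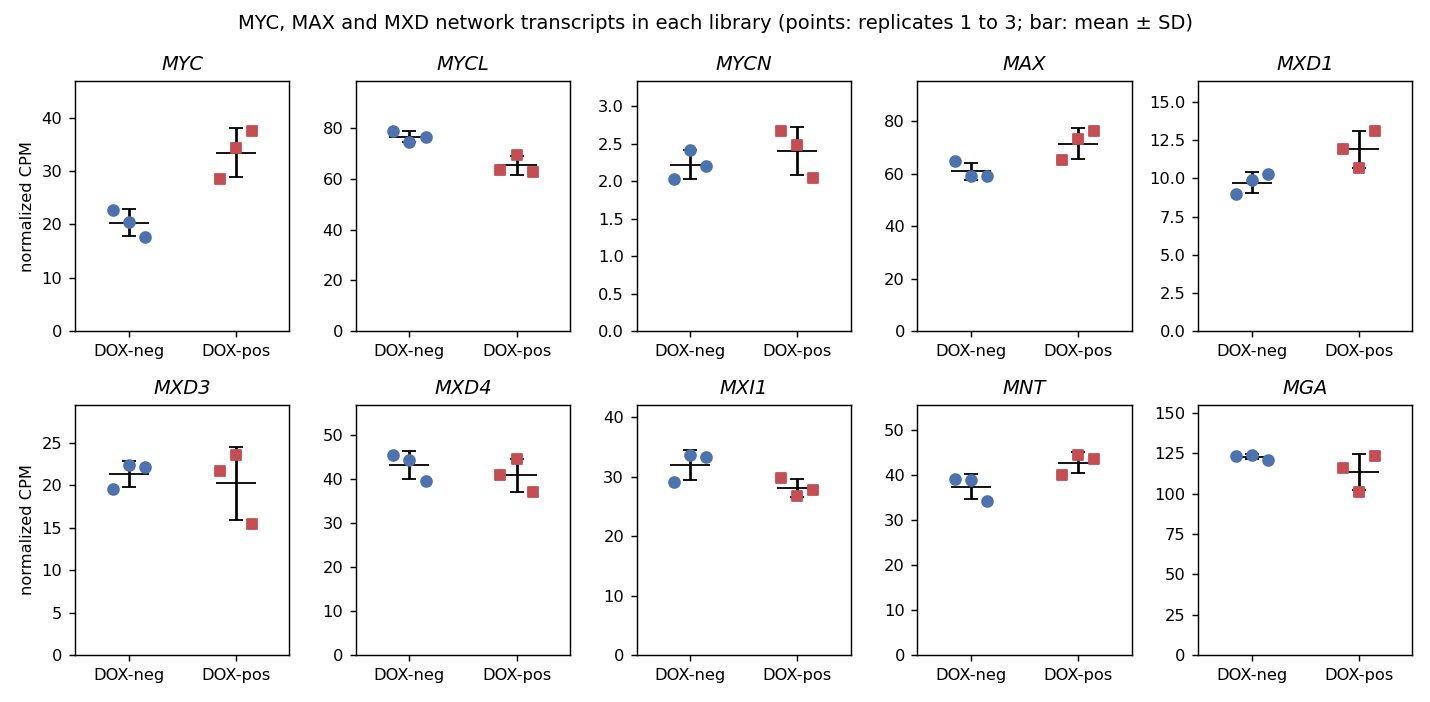
Normalized CPM of the 10 network members (y axis, from 0 in each panel) in the 3 DOX-negative (circles) and 3 DOX-positive (squares) libraries, with the group mean and SD. MYC was between 17.7 and 22.7 CPM in DOX-negative and between 28.5 and 37.5 CPM in DOX-positive libraries, while the ranges of MYCN, MXD3, MXD4, MXI1 and MGA overlapped.

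MYC, the broadly expressed paralog, was measured at 22.7, 20.5 and 17.7 CPM in DOX-negative replicates 1, 2 and 3 and at 28.5, 34.4 and 37.5 CPM in DOX-positive replicates 1, 2 and 3. Every DOX-positive library was above every DOX-negative library, with means of 20.3 ± 2.49 and 33.5 ± 4.58 CPM (SD over 3 libraries). This was a log2 fold change of 0.72 (SE 0.118, 95% interval 0.46 to 0.98, adjusted p = 0.00911), or 1.65-fold. MYC had a mean of 1729 counts per library. Without DOX-negative replicate 3, the library with the lowest MYC level, the log2 fold change was 0.63 and the adjusted p was 0.08. On TPM (length-corrected counts with the same sum in every library) as deposited, MYC was at 2.46 ± 0.559 in DOX-negative and 4.07 ± 0.577 in DOX-positive cells, and no test on log2 of those values called it.

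MYCL, the paralog known from small cell lung cancer, differed in the opposite direction without passing the test. It was measured at 78.9, 74.6 and 76.5 CPM in DOX-negative libraries and 63.6, 69.6 and 62.8 CPM in DOX-positive libraries, with no overlap between the groups. Means were 76.7 ± 2.15 and 65.3 ± 3.69 CPM, and the log2 fold change was -0.23 (SE 0.0736, 95% interval -0.39 to -0.072, adjusted p = 0.0923). MYCL was past the threshold with DESeq2 (-0.24, adjusted p = 0.0492), with offsets for GC content and transcript length (-0.29, adjusted p = 0.0051), and when DOX-positive replicate 2 was left out (-0.28, adjusted p = 0.0306).

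MYCN, the paralog amplified in neuroblastoma, was the least abundant member. Its levels were 2.03, 2.42 and 2.21 CPM in DOX-negative libraries and 2.67, 2.49 and 2.05 CPM in DOX-positive libraries. The groups overlapped, with a log2 fold change of 0.11 (SE 0.153, 95% interval -0.22 to 0.45, adjusted p = 0.728). MYCN had a mean of 145.8 counts per library, and its interval was the widest of the 10. The part of depth in that width was not tested. Its antisense neighbor MYCNOS had a mean of 7.7 counts and was not tested.

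MAX, the shared partner of all the other members, was measured at 64.8, 59.2 and 59.1 CPM in DOX-negative libraries and 65.1, 73.2 and 76.3 CPM in DOX-positive libraries. The ranges did not overlap, although DOX-negative replicate 1 and DOX-positive replicate 1 lay close together. The log2 fold change was 0.23 (SE 0.0821, 95% interval 0.05 to 0.41, adjusted p = 0.134). Ordered from lowest to highest, the 6 libraries stood in the same order for MAX as for MYC, and no other member had that order. For MAX, DOX-negative replicates 2 and 3 were nearly level. The order for MNT differed only in DOX-positive replicates 2 and 3. How many of all tested genes had the MYC order was not counted.

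The 6 antagonists showed no change past the threshold. As 4.87% of all tested genes passed it, a count of 0 among 6 genes is near that share. The median log2 fold change of the antagonists was -0.078, with 2 positive and 4 negative values. MXD1, a MAX partner linked to differentiation, was at 8.95, 9.92 and 10.3 CPM in DOX-negative libraries and 11.9, 10.7 and 13.1 CPM in DOX-positive libraries. The groups were separate by a narrow gap, and the log2 fold change was 0.30 (SE 0.106, 95% interval 0.064 to 0.53, adjusted p = 0.134). It was past the threshold with GC and length offsets alone (0.30, adjusted p = 0.0419).

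MNT, the most widely expressed MYC antagonist, was at 39.1, 38.7 and 34.2 CPM in DOX-negative libraries and 40.0, 44.4 and 43.5 CPM in DOX-positive libraries. Its groups also did not overlap, with a log2 fold change of 0.19 (SE 0.0849, 95% interval 0.0041 to 0.37, adjusted p = 0.226). MXI1, also known as MXD2, went the other way, at 29.1, 33.7 and 33.3 CPM in DOX-negative libraries and 29.8, 26.8 and 27.7 CPM in DOX-positive libraries. One DOX-positive library lay within the DOX-negative range, and the log2 fold change was -0.19 (SE 0.0887, 95% interval -0.38 to 0.0052, adjusted p = 0.25).

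The other three antagonists overlapped between the groups. MXD4 was at 45.5, 44.3 and 39.6 CPM in DOX-negative libraries and 41.0, 44.6 and 37.1 CPM in DOX-positive libraries, with a log2 fold change of -0.077 (95% interval -0.28 to 0.12, adjusted p = 0.685). MXD3, a family member expressed in S phase, was at 19.6, 22.4 and 22.1 CPM against 21.7, 23.6 and 15.4 CPM. Its log2 fold change of -0.079 (95% interval -0.38 to 0.22, adjusted p = 0.794) took its sign from the low DOX-positive replicate 3, and without that library it was 0.086. MGA, the MAX partner of PRC1.6, was at 123, 124 and 121 CPM against 116, 101 and 123 CPM, and the log2 fold change was -0.11 (95% interval -0.29 to 0.064, adjusted p = 0.467). DOX-positive replicate 2 was the lowest MGA library and the other two DOX-positive libraries lay near or within the narrow DOX-negative range.

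**Figure D2:**
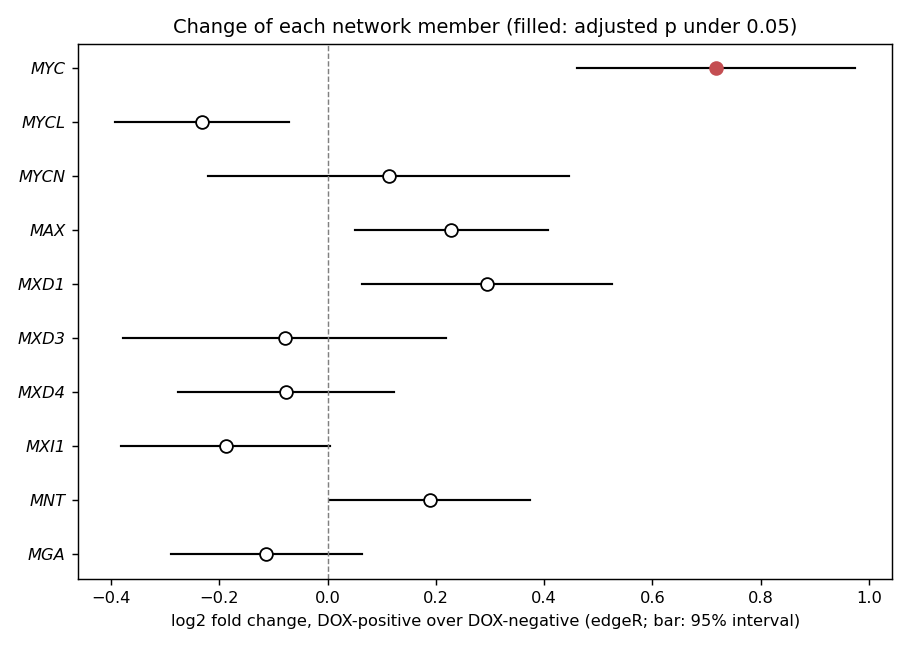
Log2 fold change of each member, DOX-positive over DOX-negative, on the x axis with its 95% interval, and the member on the y axis. The filled point is MYC at 0.72, the member with an adjusted p under 0.05. The upper bounds of the 6 antagonists were at most 0.53.

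The intervals also give an upper bound, on the log2 scale, for the change of each antagonist taken alone. They do not bound the change of the antagonists as a pool, and they measure a spread between libraries that may be technical. The upper bound of all 6 antagonists was below the MYC estimate of 0.72, and for 5 of them it was below the lower bound of the MYC interval, 0.46. The exception was MXD1, with an upper bound of 0.53. The interval of the difference between genes was not computed. Some members share genomic sequence with a neighbor in GENCODE v29, and the strand setting used in counting was not given in the sources used here. MXD1 (mean 688.7 counts) shares sequence on its own strand with SNRNP27 (2790 counts), and MXD3 (1294 counts) lies against PRELID1 on the opposite strand (4594.5 counts) and RAB24 on its own strand (643.5 counts). The values of MXD1 and MXD3 are therefore uncertain.

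Levels of different genes can be compared only per length. Protein-coding genes held between 13.2% and 19.6% of the deposited TPM and between 76.1% and 81.6% of the counts, so deposited TPM were rescaled here to a common total over protein-coding genes, a choice made after the data were seen. On this scale MAX was the most abundant member, at 70.4 ± 3.19 in DOX-negative and 81.8 ± 6.30 in DOX-positive cells. MYCL came second, at 52.9 ± 1.87 and 44.6 ± 1.61, followed by MXD4 at 39.5 ± 1.98 and 37.1 ± 2.85. In DOX-negative cells MGA, MXI1, MNT and MXD3 followed with means of 34.0, 28.9, 26.3 and 23.6, and the ranges of MXI1 and MNT overlapped, as did those of MNT and MXD3. MYC was the eighth of the 10, with rescaled TPM of 17.0, 15.3 and 13.8 and no overlap with MXD3 above it or MXD1 below it. In DOX-positive cells MYC was the sixth, at 21.7, 25.3 and 28.5, and its range overlapped those of MGA, MNT, MXI1 and MXD3. MXD1 (5.89 ± 0.532 and 7.15 ± 0.856) and MYCN (2.56 ± 0.227 and 2.75 ± 0.368) were the lowest in both groups. The MXD1 groups, apart on the CPM scale, overlapped on this scale.

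The composition of the paralog transcripts was then computed from the deposited TPM of each library, which does not depend on how libraries are scaled. MYC made up 23.3, 22.2 and 19.6% of the summed paralog TPM in DOX-negative libraries and 31.5, 33.9 and 38.4% in DOX-positive libraries, with means of 21.7 ± 1.91% and 34.6 ± 3.48%. MYCL made up 73.5, 73.7 and 76.7% against 64.0, 62.3 and 58.4%, and so stayed the most abundant paralog in every library. MYCN stayed between 3.17 and 4.50% in all 6 libraries. The shares of MYC and of MYCL did not overlap between the groups, and those of MYCN did. The shares of one library add up to a fixed total, so a higher MYC share lowers the MYCL share. The lower MYCL share is therefore not separate evidence of a MYCL fall.

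The summed level of the 3 paralogs did not separate the groups. The sum was 73.0, 68.8 and 70.7 rescaled TPM in DOX-negative libraries and 68.9, 74.5 and 74.2 in DOX-positive libraries, with means of 70.8 ± 2.09 and 72.5 ± 3.13. On the TPM as deposited, the sum was 11.3 ± 1.69 and 11.8 ± 1.73, a log2 difference of 0.069 beside a pooled SD of 0.22. On rescaled TPM, each DOX-positive library had more MYC and less MYCL than every DOX-negative library, while on the TPM as deposited the MYCL ranges overlapped. No p is given for sums over the members, since they were chosen with earlier results known.

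The summed level of the 6 antagonists overlapped between the groups as well. It was 155, 161 and 159 rescaled TPM in DOX-negative libraries and 157, 152 and 149 in DOX-positive libraries, with means of 158.2 ± 3.35 and 152.5 ± 4.09. On the TPM as deposited the sums were 25.2 ± 3.92 and 25.0 ± 5.26, a log2 difference of -0.017 beside a pooled SD of 0.27. The antagonist sum was larger than the paralog sum in every library, and the ratio of paralogs to antagonists was 0.472, 0.427 and 0.445 in DOX-negative libraries and 0.439, 0.490 and 0.499 in DOX-positive libraries. The lowest DOX-positive ratio lay inside the DOX-negative range, and the log2 difference of 0.086 equaled about 1 pooled SD of 0.087.

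**Figure D3:**
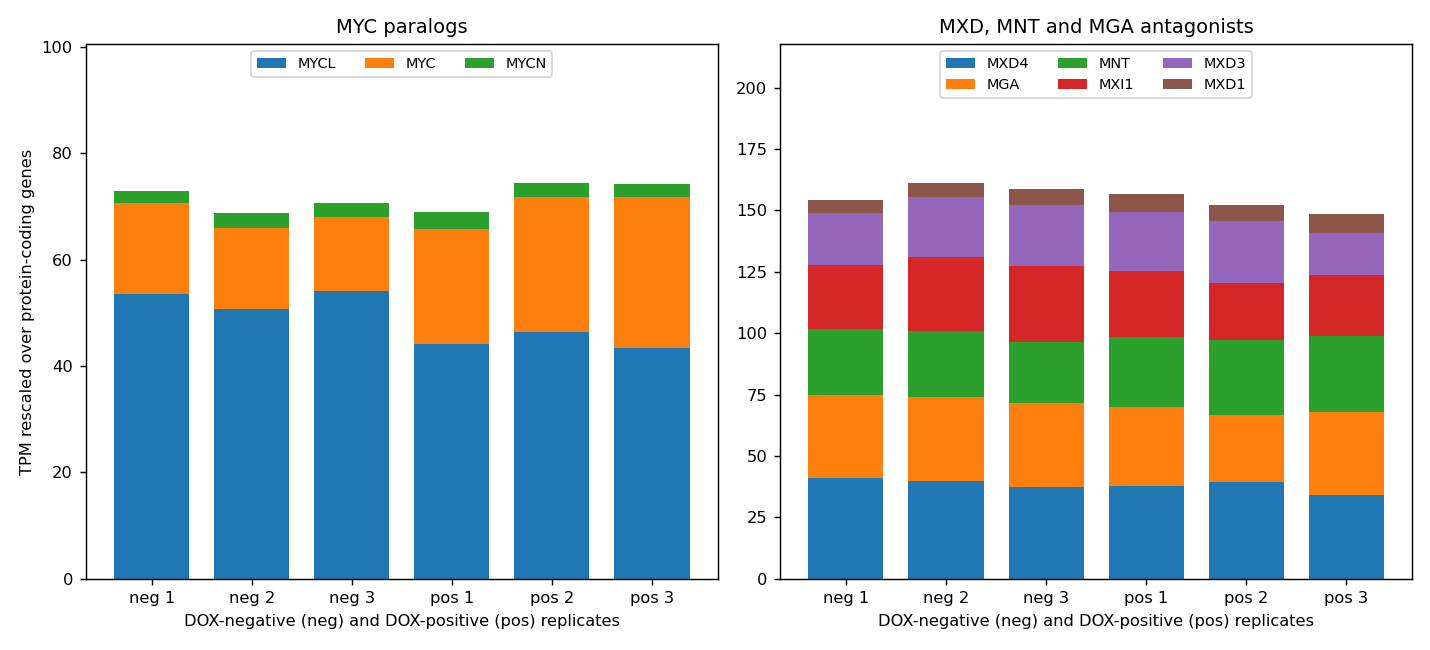
TPM rescaled over protein-coding genes (y axis, from 0) of the 3 MYC paralogs (left) and the 6 MAX-binding antagonists (right), stacked for each of the 3 DOX-negative and 3 DOX-positive libraries (x axis). The MYC segment was larger and the MYCL segment smaller in DOX-positive libraries, while the paralog sums overlapped between the groups (68.8 to 73.0 against 68.9 to 74.5).

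MYC itself stood higher against its antagonists. The ratio of MYC to the summed antagonist TPM was 0.110, 0.095 and 0.0871 in DOX-negative libraries and 0.138, 0.166 and 0.191 in DOX-positive libraries. Taken one antagonist at a time, the ratios of MYC to MXD3, MXD4, MXI1, MNT and MGA did not overlap between the groups. The ratio of MYC to MXD1 did overlap, at 3.18, 2.59 and 2.16 against 2.99, 4.05 and 3.58. These ratios carry the MYC rise in their numerator and are not separate evidence of it.

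The supply of the shared partner was compared with its users. MAX TPM relative to MYC TPM was 4.34, 4.40 and 5.06 in DOX-negative libraries and 3.48, 3.24 and 3.10 in DOX-positive libraries, so MAX was lower relative to MYC in DOX-positive cells. Relative to the 3 paralogs together, MAX was 1.01, 0.979 and 0.992 against 1.10, 1.10 and 1.19, and relative to all 9 partners it was 0.324, 0.293 and 0.305 against 0.334, 0.361 and 0.395. Both of these ratios were higher in each DOX-positive library. They carry in their numerator the MAX difference, which did not pass the threshold (adjusted p = 0.134), and are not separate evidence of it. MAX transcript was present at more than 3 times the MYC transcript in all 6 libraries.

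Genes that act with the network were examined through lists. Over all tested genes 4.87% were called, so a count of 0 on lists this short is near that share. The MLX branch, a parallel network of glucose-sensing factors with its targets TXNIP and ARRDC4, had 0 of 5 genes past the threshold and a median log2 fold change of 0.012. ARRDC4 had the lowest adjusted p of this list, at 0.144 with a log2 fold change of -0.43. The SIN3 and histone deacetylase corepressor had 0 of 17 genes called and a median of 0.049. The other components of PRC1.6 had 0 of 14 called and a median of 0.0027.

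Coactivators of MYC, including the TRRAP complexes, had 0 of 18 genes called (against 4.87% of all tested genes) and a median of -0.030. Genes that set the stability of MYC and MYCN proteins had 0 of 25 called (against the same 4.87%) and a median of -0.00019. Of these values, 12 were positive and 13 negative. Among them were FBXW7, a ubiquitin ligase subunit for MYC (-0.26, adjusted p = 0.26), and AURKA, a kinase that stabilizes MYCN (-0.24, adjusted p = 0.166). AXIN1 had the lowest adjusted p of this list and a positive sign (0.24, adjusted p = 0.111). MYC protein was not measured here.

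Transcripts that MYC is known to induce came next. Of 48 tested genes on this list, 2 rose (4.17%, against 2.91% of all tested genes) and 0 fell, with 32 positive and 16 negative values and a median of 0.050. CDC25A, a cell cycle phosphatase, was at 43.8, 40.7 and 43.3 CPM in DOX-negative and 53.6, 54.2 and 54.5 CPM in DOX-positive libraries (log2 fold change 0.34, adjusted p = 0.0228). SLC7A5, an amino acid transporter, was at 172, 155 and 138 CPM against 183, 205 and 210 CPM (0.36, adjusted p = 0.0425). LDHA, which encodes a glycolytic enzyme, had the largest absolute change on this list but was not called (-0.78, adjusted p = 0.29). Its groups overlapped. CCND2 and EIF4A1 were not tested, and EIF4A1 was listed at 0 in all 6 libraries.

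Transcripts that MYC is known to repress did not move as the list's name says. Of 19 tested genes, 6 rose (31.6%, against 2.91% of all tested genes) and 0 fell, with 12 positive and 7 negative values and a median of 0.17. Like the other lists, this one was written with earlier results of these data known. The part of that choice of genes in this share was not tested. CDKN1A, which encodes the cell cycle inhibitor p21, was at 445, 418 and 370 CPM in DOX-negative and 521, 659 and 717 CPM in DOX-positive libraries (log2 fold change 0.62, adjusted p = 0.0127). THBS1, a matrix glycoprotein, was at 16.4, 14.3 and 15.3 CPM against 25.2, 28.6 and 33.5 CPM (0.92, adjusted p = 0.00242). HES1, an effector of Notch signaling, was at 20.2, 21.1 and 18.9 CPM against 25.3, 28.9 and 29.6 CPM (0.48, adjusted p = 0.0153). CEBPA (0.48, adjusted p = 0.0208) and GADD45A (0.33, adjusted p = 0.0364) also rose and were named after their values were seen. Several of these genes also respond to other regulators, and the part of MYC in their change was not tested.

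Of 19 tested genes for other factors that bind E-boxes or their partners, 2 rose (10.5%, against 2.91% of all tested genes) and 0 fell, with a median of 0.14. MITF, the melanocyte lineage factor, was at 1.67, 2.26 and 2.46 CPM in DOX-negative and 3.56, 3.53 and 3.65 CPM in DOX-positive libraries (log2 fold change 0.76, adjusted p = 0.0198). TFEB, a regulator of lysosomal genes, was at 9.67, 10.4 and 9.05 CPM against 11.7, 14.3 and 13.0 CPM (0.42, adjusted p = 0.0427). MITF and TFEB belong to the same MiT/TFE family.

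**Figure D4:**
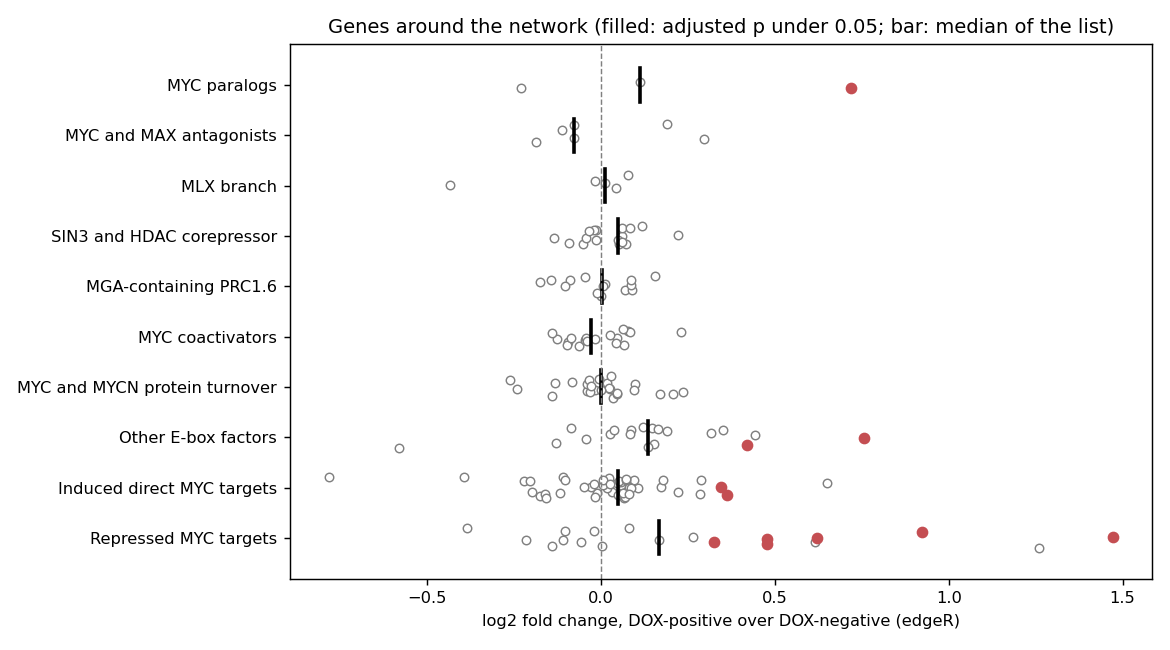
Log2 fold change, DOX-positive over DOX-negative (x axis), of every tested gene on the lists around the network (y axis), with filled points for an adjusted p under 0.05 and a bar at each list's median. The called genes lay to the right of 0 on the lists of paralogs (MYC), repressed targets (6), induced targets (2) and other E-box factors (2). On each of the other lists 0 genes were called, where 4.87% of all tested genes were.

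Neighbors of the member genes were read to see whether whole regions moved. Of 16 tested neighbors, 1 rose and 1 fell (12.5% together, against 4.87% of all tested genes), with a median of -0.025. MFSD2A, which lies next to MYCL, was at 17.4, 19.2 and 18.1 CPM in DOX-negative and 14.4, 13.7 and 10.3 CPM in DOX-positive libraries (log2 fold change -0.51, adjusted p = 0.0341). TRIT1, on the other side of MYCL, was at -0.24 (adjusted p = 0.149), so both neighbors had the sign of MYCL. DUSP5, a neighbor of MXI1, rose (0.64, adjusted p = 0.0443) while MXI1 itself was at -0.19. Of the 3 tested noncoding neighbors of MYC, none passed the threshold. PVT1 was at -0.10 (adjusted p = 0.721), and its groups overlapped. CASC11 (0.91, adjusted p = 0.169) and CASC8 (0.69, adjusted p = 0.113) had the sign of MYC and groups that did not overlap, from means of 15.5 and 37 counts. Groups did not overlap for 28.1% of all tested genes either.

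Calls among the genes of the lists depended on single libraries, most of all on DOX-negative replicates 2 and 3. Of 19 genes called on any list, MYC included, 1 was called without DOX-negative replicate 3 (THBS1, adjusted p = 0.0339) and 2 without DOX-negative replicate 2 (MYC and THBS1). The number was 13 when DOX-negative replicate 1 was left out, and 19, 13 and 10 when DOX-positive replicate 1, 2 or 3 was.

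The genes whose levels were most like those of MYC over the 6 libraries were identified among 13573 genes that averaged 100 counts or more. Among the 5 highest were the cytokine gene IL32 (Pearson r = 0.998), ANGPTL4 (0.997), SLC37A1 (0.996) and CSF1 (0.996). Those most like MAX were LGMN (0.999), EVA1C (0.998), ERBB3 (0.998), NCS1 (0.997) and FBN1 (0.996). These are descriptions over 6 libraries in 2 groups that share one depth scale. An r over 0.95 was found for 547 genes with MYC and for 363 with MAX, so such values were common. Log2 fold changes of these 4 genes like MYC ranged from 0.49 for SLC37A1 to 1.42 for IL32. Of the 5 like MAX, 0 passed the threshold, where 4.87% of all tested genes did. All were chosen for their likeness to MYC or MAX over these same libraries. Their changes follow in part from that choice and are not separate evidence.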

How the data were processed

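Per the labels, total RNA was made into stranded mRNA libraries, although RN7SK, which lacks a poly(A) tail, held 5.83 to 7.79% of counts. The authors deposited counts per gene (28008 rows), in a table named for STAR, and deposited TPM (25673 rows). The submitters' processing notes name STAR, DESeq2 and GRCh38 (hg38). Versions, annotation and strand setting are not given in the sources used here.

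Counts were filtered (filterByExpr), scaled by TMM and tested with edgeR 4.0.16 (R 4.3.3; glmQLFit with the robust option, glmQLFTest, no covariate). P-values were adjusted over all 17026 tested genes (Benjamini-Hochberg), and genes under 0.05 were called. SEs and 95% intervals were derived from the F statistic. Alternatives used DESeq2 1.42.0, limma 3.58.1 (voom, and trend on log2 TPM with a pseudocount of 1 or 0.1), other scalings and filters, a replicate block and leaving out each library. GC and length offsets, protein-coding rescaling of the sums and the paralog shares were added after the data were seen. GC content was found for 93% of tested genes, and 91.6% of symbols matched the RefSeq names table directly. The code was tested on simulated counts.

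The members and lists were chosen with earlier results of these data known, and the lists were written from general knowledge. All members, MUC1, up to 4 called genes per list with the largest absolute change, the 5 genes most like MYC and the 5 most like MAX, and genes overlapping a member are named. ARRDC4, FBXW7, AURKA, AXIN1, LDHA, CEBPA, GADD45A, TRIT1, PVT1, CASC11, CASC8 and COL1A2 were named after their values were seen. Some genes that the rule names are not reported here. Within-group library pairs differed by 16.4 to 101 in chi-square per degree of freedom, more than read sampling alone gives. Each library was counted as its own sample, but these values cannot show whether the libraries came from separate cultures.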

Additional observations from a re-analysis of the deposited data

How the results depend on the processing

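MYC had a positive log2 fold change in all 20 alternatives, 0.56 to 0.82, with an adjusted p of 2.01e-06 to 0.622, and lost its call in 4 of them, namely in the 3 fits on deposited TPM and when DOX-negative replicate 3 was left out. Genes called numbered 829 in the edgeR result, 1355 with DESeq2, 30 and 35 on log2 TPM with a pseudocount of 1 and 0.1, 0 on unfiltered log2 TPM by limma (1248 at an unadjusted p under 0.05), 2061 with GC and length offsets and 337 on rescaled TPM. Leaving out 1 library gave 58 (without DOX-negative replicate 3) to 1035 (without DOX-positive replicate 1), and 127 and 375 when DOX-negative replicate 2 or DOX-positive replicate 3 was left out. Members called numbered 1 in the edgeR result, 2 with DESeq2 (MYC, MYCL), 3 with offsets (MYC, MYCL, MXD1), 0 in the 3 fits on deposited TPM, and 0 to 2 with 1 library left out. The cause was not tested. MXD3 ranged from -0.20 to 0.086 with 1 library left out and was positive only without DOX-positive replicate 3. Of 198 member values under alternatives, 189 had the same sign and the same call. Of 544 values of 28 other named genes, 142 lost the call, 9 gained it and 0 changed sign. The higher share of called genes was 59.8%, but 43.3 and 45.7% on filtered log2 TPM. The replicate numbers did not pair the libraries (r = -0.565, 0.0222 and -0.0774), and with the replicate block 998 genes and 1 member were called (MYC 0.72, adjusted p = 0.000995). Summed TPM of paralogs and antagonists, their ratio and the MYC share moved by less than 1 SD. With 1 library left out, the log2 difference of the paralog sum was -0.062 to 0.18. That of the antagonist sum was -0.18 to 0.11, so both signs occurred for each sum. Depth was lowest for MYCN (mean 145.8 counts).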
